A study of Macaca mulatta with 4 samples.

Results

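Hotspot-poor windows are the stretches of rhesus macaque (Macaca mulatta) chromosomes that held the least open chromatin in morulae, the compact balls of cells that precede the blastocyst. DNase-seq was run on androgenetic (AG) embryos, whose nuclear genomes come from sperm only, and on gynogenetic (GG) embryos, whose genomes come from the oocyte only. Each group had 2 libraries, and cells of both groups were digested with DNase I at 40 U/ml for 5 min at 37 °C, per the labels. The labels give neither the animals, nor the number of embryos in a library, nor whether the 2 libraries of a group came from separate embryos, so spread between them may be technical. Chromosomes 1 to 20 except 5 were cut into 2492 windows of 1 Mb. The base pairs (bp) covered by hotspots in each window were divided by the library's mean over these windows and averaged over the 4 libraries, which gives the scaled density used below (1 is the average window). The lowest 20% of windows, 498 in number and 494 Mb long in all, were kept. They held 24705 of the 328084 hotspots in the 4 lists and 21528 of the 222970 regions left when overlapping hotspots of all lists were merged. Measured values thus chose the members, and their low density is a description, not a finding.

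DNase I cuts DNA where nucleosomes are absent or loosened, and a hotspot is a stretch with more cuts than its surroundings. Active promoters and enhancers make up much of the open chromatin of a cell. Long stretches of mammalian chromosomes with few genes are packed as heterochromatin, much of it at the nuclear lamina, and open sites are sparse and scattered there. In embryos before implantation this packing is still being set up, and paternal and maternal chromosomes start from different chromatin. No genome or gene annotation of the build of the files, rheMac8, was used here. Windows and regions are therefore given by position only, no sequence is shown, and the genes in them were not analysed here. How much of each window is assembled or can be mapped uniquely was not measured, so absence of hotspots and absence of mappable sequence cannot be told apart.

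The lists held 64730 to 93171 hotspots covering 67.8 to 102 Mb, and the shortest was AG replicate 1. The lists give no read counts, so sequencing depth is unknown, and its part in the length of a list was not tested. AG replicate 1 stood apart in the hotspot-poor windows too, and results that rest on it are given with and without it.

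In absolute terms a hotspot-poor window was sparse but seldom empty. AG replicate 1 covered 0 to 16.0 kb of a window with a median of 4.78 kb, and AG replicate 2 covered 1.05 to 26.3 kb with a median of 9.78 kb. GG replicate 1 covered 0 to 31.0 kb with a median of 11.6 kb, and GG replicate 2 covered 0 to 26.3 kb with a median of 10.2 kb. The ranges of the 4 libraries overlapped widely, with AG replicate 1 lowest. Outside these windows, medians were 26.3, 32.3, 40.2 and 37.1 kb in the same order. A member window held a median of 7 hotspots in AG replicate 1, 13 in AG replicate 2, 15 in GG replicate 1 and 13 in GG replicate 2.

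Cut into pieces of 100 kb, 96.3% of the 4942 pieces held a hotspot in some library, but only 21.2% held one in all 4, against 99.5% and 70.1% in the other windows. The gap between neighbouring merged regions had a median of 13.0 kb in hotspot-poor and 4.87 kb in other windows. Of 41 gaps of at least 200 kb, 37 were centred in hotspot-poor windows, and the longest was 349 kb, at chr17:45685938-46034564. By 100 kb pieces, 87 (1.76%) exceeded the mean over all windows of the rule, a count that the choice of windows by the same covered bp largely fixes. That choice also favours long gaps and unfilled pieces, so these are descriptions. The fullest 100 kb piece of a window took a median of 24.5% of its scaled bp, against 22.5% in other windows, and in 6 windows that piece took over 50%.

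The sparsest window was chr15:36000001-37000000, with 0.822 and 1.44 kb in AG replicates 1 and 2, no hotspot in GG replicate 1 and 0.882 kb in GG replicate 2. The next was chr18:42000001-43000000, with 2.21, 4.26 and 4.06 kb in AG replicates 1 and 2 and GG replicate 1 and none in GG replicate 2. After it came chr14:36000001-37000000, with 1.46, 4.33, 0.509 and 4.21 kb. These 3 windows were low in both groups, at scaled densities of 0.0253, 0.0805 and 0.0808. No window had no hotspot in every library. Besides the first and second of these, 4 member windows were empty in 1 library. They were chr2:127000001-128000000, chr4:126000001-127000000 and chr4:165000001-166000000 in AG replicate 1, and chr16:35000001-36000000 in GG replicate 2. At the other end, the members just inside the limit were chr1:76000001-77000000 and chr4:89000001-90000000, at 0.400 and 0.401. Those just outside were chr6:102000001-103000000 and chr8:90000001-91000000, both at 0.402, so the limit falls in a continuum.

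Whether windows that were poor in some libraries were also poor in a library that played no part in choosing them was asked next. Windows chosen from 3 libraries had a mean scaled density of 0.226 in AG replicate 1, 0.363 in AG replicate 2, 0.351 in GG replicate 1 and 0.333 in GG replicate 2 when each was the one left out. Medians of the remaining windows were 1.00 to 1.05. Of the 498 windows chosen each time, 64.3 to 69.7% were also among the lowest 20% of the library left out, and at most 1 lay above that library's mean. The sparseness was thus found again in each library.

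The choice also carried from one kind of embryo to the other. Windows chosen from both AG libraries had a mean scaled density of 0.379 in GG, and those chosen from both GG libraries 0.325 in AG. The AG and GG choices shared 320 windows, 64.3% of each. Within the 498 members, 178 were among the lowest 20% in all 4 libraries taken singly, 360 in at least 3, and 11 in no more than 1.

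Hotspot-poor windows were spread over all 19 chromosomes of the rule but unevenly. Chromosome 17, the counterpart of the gene-poor human chromosome 13, had 33 of its 96 windows among them (34.4%), and chromosome 18, the counterpart of human 18, had 24 of 71 (33.8%). Chromosomes 6 and 12 followed with 28.2% and 27.8%. Chromosome 16 had 5 of 78 (6.41%), chromosome 19, the counterpart of the gene-dense human 19, had 4 of 54 (7.41%), and chromosome 3 had 18 of 186 (9.68%). Libraries taken singly differed for some chromosomes, singled out here after their values were seen. Chromosome 20 had 13.3% and 12% of its windows among the lowest 20% of AG replicates 1 and 2 but 26.7% and 29.3% in GG replicates 1 and 2, so the groups did not overlap there. Chromosome 10 ran the same way, at 10.8% and 6.45% in AG and 23.7% and 19.4% in GG, as did chromosomes 6 and 16. Chromosome 3 ran the opposite way, at 17.7% and 15.1% in AG and 11.3% and 9.14% in GG, as did chromosome 2, and the groups overlapped or tied on the other 13. With 2 libraries against 2, label order alone separates the groups in a share of 0.333 of cases. The separations above are therefore not read as differences between AG and GG. Chromosome 18 ran from 22.5% to 32.4% in AG and from 25.4% to 46.5% in GG, so the groups overlapped. When chromosome 5 was let into the same rule, 68 of its 191 windows (35.6%) were among the lowest 20%, and 468 of the 498 members stayed.

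**Figure D1:**
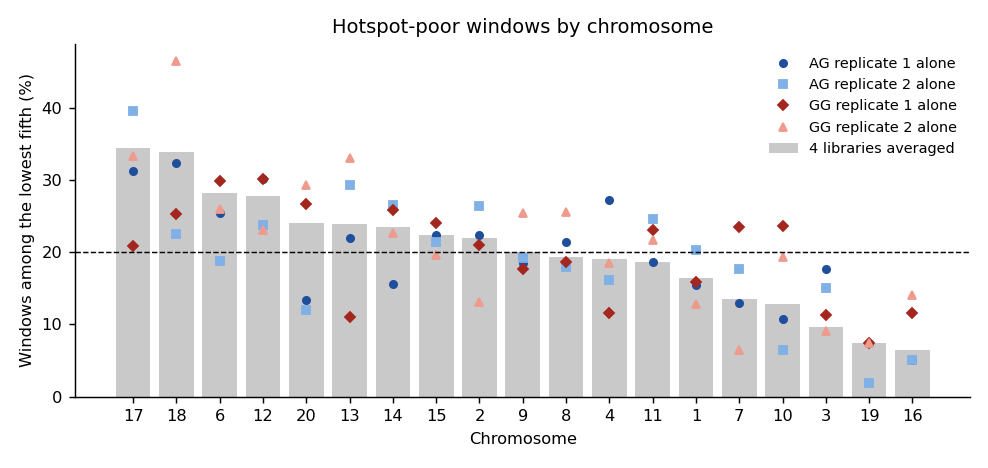
Windows among the lowest 20% by scaled density, as a percentage of the windows of each chromosome. Grey bars use the mean of the 4 libraries, points use each library alone, and the dashed line marks 20%. Chromosomes 17 and 18 have the tallest bars, at 34.4% and 33.8%, and chromosomes 16 and 19 the lowest, at 6.41% and 7.41%.

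Chromosome ends were compared with the inner parts. Of 190 windows within 5 windows of an end, 16.3% were hotspot-poor, against 20.3% of the 2302 further in. No chromosome began with one, and 6 of the 19 last windows, which are cut short at the last hotspot and so can be low by length alone, were members.

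Many hotspot-poor windows lay side by side, and 321 of the 498 (64.5%) had a member as neighbour, against 518 of the 1994 other windows. The members formed 293 runs, of which 177 were single windows, 67 were pairs of adjacent windows and 9 were 5 or more windows long. The longest was the 10 Mb of chr17:43000001-53000000, where scaled densities were 0.121 and 0.217 in AG replicates 1 and 2 and 0.451 and 0.351 in GG replicates 1 and 2. It held 51 and 94 hotspots in AG and 223 and 163 in GG, so both AG libraries lay below both GG libraries. An 8 Mb run at chr2:125000001-133000000 had scaled densities of 0.135 and 0.262 in AG and 0.303 and 0.278 in GG, again with AG below GG. Another 8 Mb run at chr6:2000001-10000000 had 0.248 and 0.451 in AG and 0.247 and 0.240 in GG, where AG replicate 1 and GG replicate 1 hardly differed. Windows with a member on both sides were emptier than those with none, with median densities of 0.258 and 0.321. The windows that flanked runs had a median of 0.699, and 149 of 518 lay above 1, the average window of the rule.

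Inside runs, the fall in hotspot density with distance from the edge was steeper in each AG library than in either GG library. AG replicate 1 had 9.92 hotspots per Mb within 100 kb of the nearest window that was not hotspot-poor and 5.51 per Mb more than 1 Mb inside, and AG replicate 2 had 17.2 and 10.7. GG replicate 1 had 17.4 and 15.4, and GG replicate 2 had 15.2 and 13.0. The density far inside was thus 0.555 and 0.622 of that at the edge in AG and 0.888 and 0.857 in GG, or 0.589 ± 0.0478 and 0.873 ± 0.0225 (SD, n = 2 libraries each). The groups did not overlap, and the two-sided exact permutation p was 0.333, the smallest that 2 libraries against 2 can give. The places more than 1 Mb inside lie in the 49 runs of at least 3 windows. Within those runs alone, density more than 1 Mb inside was 0.694 and 0.707 of that in the outer 500 kb in AG and 0.971 and 0.982 in GG. Without chromosome 17, which holds the longest run, the ratios to the edge were 0.580 and 0.642 in AG and 0.838 and 0.816 in GG. This comparison was chosen after the values were seen. The edges of runs were set by the mean scaled density of these same libraries. The p-value does not measure the difference apart from that.

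Hotspots in these windows had lower scores than those elsewhere in all 4 lists. The score is the authors' own value, with a scale that is not given in the sources used here, and is compared within a list only. Median scores in hotspot-poor and other windows were 5.07 and 5.54 in AG replicate 1, 4.83 and 5.21 in AG replicate 2, 4.85 and 5.43 in GG replicate 1, and 4.97 and 5.54 in GG replicate 2. All 4 libraries thus had a lower median in hotspot-poor windows, by 0.499 ± 0.0929 on average (SD, n = 4). The two-sided exact sign-flip permutation p was 0.125, the smallest that 4 libraries can give, so no such comparison can pass 0.05. On average 65.0 ± 2.06% of their hotspots came from the lower-scoring 50% of the list, and 3.76 ± 0.676% from the top 10%, against 10.7 ± 0.206% of the hotspots of other windows. They were also narrower, with median widths of 685, 732, 722 and 735 bp against 926, 911, 931 and 944 bp, a measure that the rule partly used. In the lowest-scoring 10% of each list, hotspots of other windows had median widths of 651, 656, 619 and 643 bp. In the highest-scoring 10% these were 1659, 1477, 2016 and 1971 bp. Choosing windows by low covered bp can thus favour lower scores too. The p-value for scores does not measure them apart from that choice.

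Few hotspots of these windows were found in another library. By an overlap of at least 1 bp with any other list, 26.8% were found again for AG replicate 1, 16.1% for AG replicate 2, 23.2% for GG replicate 1 and 25.2% for GG replicate 2. In the other windows the shares were 56.1, 43.6, 53.2 and 55.6%. Each library had a lower share in hotspot-poor windows, by 29.3 ± 1.28 percentage points on average (SD, n = 4), with an exact two-sided sign-flip permutation p of 0.125. The libraries are compared with each other here, so their 4 differences are not independent. The other 3 lists covered 2.45 to 3.03% of the bp of hotspot-poor windows and 8.49 to 9.24% of other windows, and the part of this in the difference was not tested. The windows were chosen for low covered bp in these same lists, which favours a lower share. The direction is thus partly built in, and the p-value does not measure it apart from that choice. Compared within 10 classes of equal size by score and averaged over them, the shares in hotspot-poor windows were still lower, by 22.8, 23.6, 22.9 and 23.9 percentage points in the 4 libraries. These classes leave the low coverage by the other lists in place.

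The gap was also present among the strongest hotspots. In the highest-scoring 10% of each list, 59.5, 46.7, 60.4 and 58.2% of the hotspots in hotspot-poor windows were found again (AG libraries first), against 91.5, 85.7, 94.0 and 94.2% elsewhere. These top-scoring hotspots were narrow, with medians of 781, 786, 973 and 936 bp against 1659, 1477, 2016 and 1971 bp in other windows. The top 1% of each list was similar. The 31, 52, 31 and 29 such hotspots in hotspot-poor windows had median widths of 370, 825, 598 and 574 bp, against 1375, 1476, 1969 and 1916 bp, and 48.4, 61.5, 58.1 and 69.0% of them were found elsewhere.

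**Figure D2:**
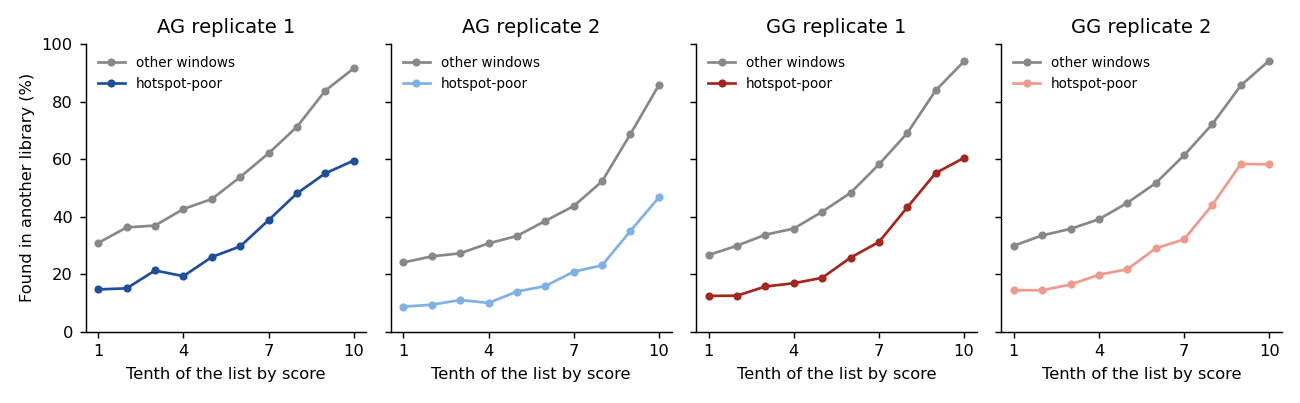
Share of hotspots found in at least 1 other library (%, y axis) in 10 classes of each list by score (x axis, 10 is the highest), with 1 panel per library. Coloured points are hotspot-poor windows and grey points other windows. The coloured line lies below the grey line in every class in all 4 libraries, by 32.0 to 39.0 percentage points in the highest.

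Of the 21528 merged regions in hotspot-poor windows, 19184 (89.1%) came from a single list, 1801 from 2, 375 from 3 and 168 (0.780%) from all 4. Over the whole series 74.9% came from a single list and 5.9% from all 4, and in the other windows of the rule 72.9% and 6.66%. The 168 shared regions lay in 140 windows, of which 117 had just 1, and 358 of the 498 windows had none. Of the other windows, 93.5% had at least 1. A shared region in a hotspot-poor window was a median of 584 kb from the next one, against 25.6 kb elsewhere. A region called in every list adds covered bp to all 4 libraries. Choosing windows by low covered bp thus favours few shared regions, wide spacing and a high share of single-list regions, so these are descriptions. Shared regions in hotspot-poor and other windows had median widths of 2365 and 2932 bp, and median score percentiles of 74.9 to 83.4 and 83.7 to 88.9 over the 4 lists. The upper end ran the other way. Of the 168, 6.55, 11.3, 7.14 and 8.93% were in the top 1% of their lists (AG libraries first), against 3.21, 3.87, 5.30 and 4.67% in other windows. Those of the 168 were 11, 19, 12 and 15 regions, and in each list they included 3 in the same window of chromosome 2. How far the choice of windows favours this contrast was not tested.

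The shared regions with the highest score percentile in their weakest library clustered at one place. Of the first 5, 3 lay in the same window of chromosome 2, inside the 8 Mb run given above. The first, chr2:130160672-130162653, had scores of 240 and 637 in the AG lists and 366 and 361 in the GG lists, all above the 99.9th percentile of their lists. The next, chr2:130167525-130168148, had 213, 539, 361 and 338, and chr2:130163179-130163621 had 105, 342, 217 and 216. The window around them was not otherwise dense, with 6, 14, 11 and 10 hotspots and a scaled density of 0.239. With 4 shared regions it had the most of any member. On chromosome 6, chr6:21097157-21098191 had scores of 130, 377, 225 and 218 and lay 2243 kb from the nearest other shared region. The last of the 5, chr1:3286817-3289251, had 114, 142, 141 and 114. All 5 lay above the 99.9th percentile of every list.

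Differences between AG and GG embryos were examined first for the windows as a whole. Hotspot-poor windows took 3.93 and 6.44% of covered bp in AG replicates 1 and 2 and 6.29 and 5.95% in GG replicates 1 and 2. The means were 5.19 ± 1.78% and 6.12 ± 0.239% (SD, n = 2 each), and the groups overlapped, since AG replicate 2 was the highest and AG replicate 1 the lowest (two-sided exact permutation p = 1). AG minus GG came to -0.931 percentage points and rested on AG replicate 1. Without that library it was 0.325, and with lists shortened by score to equal covered length it was 0.468. The share of hotspots by number was 5.79 and 8.43% in AG and 8.81 and 8.35% in GG (exact permutation p = 0.667). At the dense end, the 20% of windows with the highest density took 46.1 and 41.2% in AG and 39.9 and 39.5% in GG, where the groups did not overlap (exact permutation p = 0.333).

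Single windows were compared by limma on log2 of covered bp plus 1000, scaled to each library's mean, an approach that understates differences of sparse windows. The fit used all 2774 windows with a hotspot in the series, members and chromosomes outside the rule included. By limma, 0 of the 498 members passed a Benjamini-Hochberg adjusted p of 0.05, as did 0% of all windows in either direction. At an unadjusted p under 0.05, 49 members were higher in AG (9.84%, against 6.6% of all windows) and 81 in GG (16.3%, against 11.1%). Without AG replicate 1 these were 79 in AG (15.9%, against 7.5% of all windows) and 76 in GG (15.3%, against 9.37%), so the leading direction turned. After adjustment, a variance trend in limma called 18 members (3.61%, against 7.89% of all windows), an offset of 10000 bp called 36 (7.23%, against 6.42%) and median scaling called 1 (0.201%, against 0.0721%). Members varied more than windows at large, with a median standard error of 0.39 against 0.27 on the log2 scale. With a variance trend, 22 members had a limma unadjusted p under 0.05 and were higher in AG (4.42%, against 10.5% of all windows). In GG there were 54 (10.8%, against 12.6%). The excess of members over all windows without the trend thus turned with it.

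Both AG libraries lay above both GG libraries in 82 members (16.5%, against 24.3% of all windows) and below them in 148 (29.7%, against 28.4%). In the other windows of the rule these shares were 27.9% and 26.8%. The median log2 difference, AG minus GG, was -0.15 over members and -0.03 over all windows. This lean towards GG depended on the scaling and on AG replicate 1. Median scaling, which moved the median of all windows to 0.10, gave 117 members higher in AG (23.5%, against 31.2% of all windows), 127 in GG (25.5%, against 21.2%) and a median of -0.02. An offset of 10000 bp gave 128 (25.7%, against 27.9%) and 111 (22.3%, against 26.7%) and a median of 0.03. Without AG replicate 1 the direction turned, with AG above both GG libraries in 219 members and below them in 163 (38.7% of all windows either way) and a median of 0.12. Of the other windows of the rule, 1.76% were over 2-fold higher in AG and 5.07% over 2-fold higher in GG. Over 2-fold differences were found in 35 members higher in AG (7.03%, against 2.63% of all windows) and 86 higher in GG (17.3%, against 8.44%). Without AG replicate 1 these were 76 and 55, so the direction with more of them changed, and over all windows the shares were then 5.08% and 5.77%, against 15.3% and 11% of members.

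**Figure D3:**
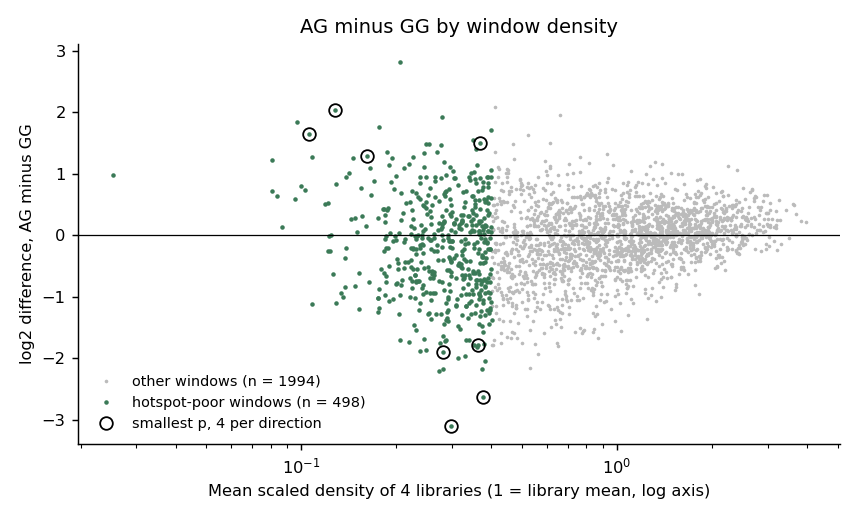
Log2 difference in covered bp, AG minus GG (y axis), against mean scaled density of the 4 libraries on a log axis (x axis, 1 is the library mean) for each window of the rule. Green points are the 498 hotspot-poor windows, grey points the 1994 others, and circles the 4 members with the smallest p in each direction. Differences widen towards low density, and the circled windows run from -3.10 to 2.04.

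The member with the smallest p was chr17:67000001-68000000. Its hotspots covered 0.879 kb in AG replicate 1, 1.05 kb in AG replicate 2, 24.7 kb in GG replicate 1 and 17.1 kb in GG replicate 2, in 2, 1, 32 and 21 hotspots. Both AG libraries were nearly empty there while both GG libraries exceeded their medians for hotspot-poor windows, a log2 difference of -3.10 (SE 0.26, limma adjusted p = 0.0567), or 8.59-fold. Next was chr1:175000001-176000000, with 2.84 and 1.76 kb in AG and 24.3 and 25.1 kb in GG (log2 -2.63, SE 0.33). The window chr15:53000001-54000000 had 3.25 and 5.18 kb in AG and 22.7 and 20.3 kb in GG (log2 -1.78, SE 0.23). A further window of chromosome 1, chr1:80000001-81000000, had 2.07 and 3.74 kb in AG and 16.8 and 17.5 kb in GG (log2 -1.89, SE 0.25). For each of these 3 windows limma gave an adjusted p of 0.125. In all 4 windows both AG libraries lay below both GG libraries.

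In the other direction, adjacent windows of chromosome 12 had the smallest p. The first, chr12:5000001-6000000, had 3.64 and 6.59 kb in AG and 1.19 and 1.68 kb in GG (log2 1.65, SE 0.28, limma adjusted p = 0.125). The second, chr12:6000001-7000000, had 6.36 and 7.45 kb in AG and 3.74 and 2.61 kb in GG (log2 1.28, SE 0.24, limma adjusted p = 0.140). In chr8:32000001-33000000 hotspots covered 13.5 and 18.8 kb in AG and 5.60 and 7.84 kb in GG (log2 1.5, SE 0.28). In chr11:60000001-61000000 they covered 4.11 and 9.08 kb in AG and 0.758 and 1.84 kb in GG (log2 2.04, SE 0.39). Their limma adjusted p-values were 0.140 and 0.143. Both AG libraries lay above both GG libraries in all 4 of these windows. The member with the largest positive difference, named after its values were seen, was chr16:35000001-36000000, with 7.25 and 14.7 kb in AG, 3.25 kb in GG replicate 1 and no hotspot in GG replicate 2 (log2 2.82, limma adjusted p = 0.150).

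Within members, window values of the same group went together more than those of different groups. Over the 498 windows, Pearson's r of covered bp was 0.364 between the AG libraries and 0.422 between the GG libraries, and -0.0872 to -0.00651 for the 4 mixed pairs. In the other windows it was 0.923, 0.909 and 0.805 to 0.834. Members were chosen for a low mean over the 4 libraries, which lowers every such correlation, and neighbouring windows are not independent, so these are descriptions. By single positions, the Jaccard index (shared over total covered bp) in hotspot-poor windows was 0.0888 for the GG pair, 0.0455 for the AG pair and 0.0333 to 0.0447 for the mixed pairs.

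Regions found in both libraries of 1 group and neither of the other were counted last. Hotspot-poor windows held 223 AG-only regions (1.04% of their regions, against 2.12% over the whole series) in 168 windows, and 826 GG-only regions (3.84%, against 5.48%) in 362 windows. There were 3.7 times as many GG-only as AG-only regions there and 2.45 times as many in the other windows. The ratio fell with every step up in density, from 3.7 in the lowest 20% of windows through 3.14, 3.03 and 2.59 to 1.97 in the highest. Other lists changed the size of the ratio, while the order of the 5 density classes stayed in the 3 shortened sets. With the higher-scoring 50% of each list it went from 3.72 to 2.17, with lists shortened to equal number it went from 2.51 to 1.44, and with lists shortened to equal covered length from 1.56 to 0.903, falling at every step. Counts of regions carry no test, and the Jaccard index was higher for the GG than for the AG pair in other windows too, at 0.263 and 0.178. Leaving out a library changes what a region needs to count, and the ratio in hotspot-poor windows was then 0.163 and 0.331 without AG replicates 1 and 2 and 20.5 and 25 without GG replicates 1 and 2. In other windows it was then 0.321 and 0.463, and 6.99 and 8.28, so without either AG library the ratio was lower in hotspot-poor than in other windows.

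**Figure D4:**
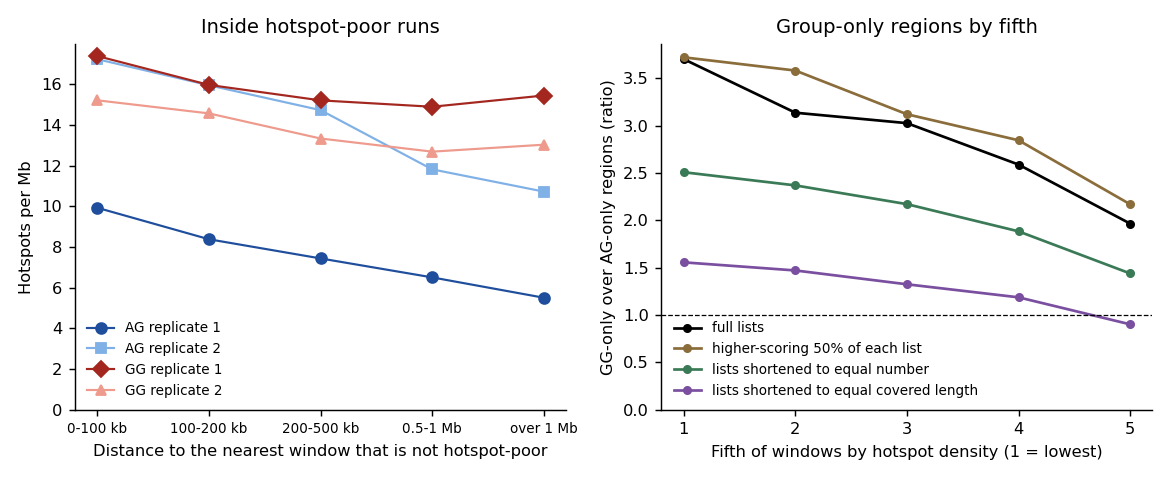
Left, hotspots per Mb in hotspot-poor windows (y axis) by distance to the nearest window that is not hotspot-poor (x axis), with 1 line per library. Right, ratio of GG-only to AG-only regions (y axis) in each 20% of windows by density (x axis, 1 is the lowest), for the full lists and 3 ways of shortening them. AG lines fall from 9.92 and 17.2 to 5.51 and 10.7 hotspots per Mb while GG lines end at 15.4 and 13.0, and all 4 ratio lines fall from left to right.

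The AG-only regions with the highest score percentile in their weaker library came first on chromosome 6. There chr6:2912450-2913874 scored 36.5 in AG replicate 1 and 27.4 in AG replicate 2, at percentiles 99.8 and 99.6 of these lists. Next, chr10:57764915-57766298 had 15.8 and 13.1, and chr3:115947745-115948546 had 10.4 and 13.3, the former score from 35 bp only. Among GG-only regions, chr8:20099227-20100134 scored 21 in GG replicate 1 and 18.9 in GG replicate 2, at percentiles 99.3 and 99. It was followed by chr9:103981899-103982645 with 11.3 and 11.8 and chr1:133507397-133507719 with 10.6 and 12.4. All 6 lay in windows where the other group had hotspots as well, 15 and 12 in GG around the first AG-only region and 13 and 18 in AG around the first GG-only region.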

How the data were processed

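Each library came as a hotspot list deposited by the authors, with chromosome, start, end and a score, at a false discovery rate of 0.01 per the file names. Per the submitters' processing notes, rheMac8 served as the build, and deepTools 3.3.1, SAMtools, Bowtie2 and Trim Galore were used in roles left unstated. Neither the hotspot caller nor the score's scale is given there. Depth is unknown, and its effect on the number of weak hotspots in a list was not tested. Members and tests were chosen with earlier results of these data known.

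Hotspots were cut at window borders to sum bp and placed by midpoint to count. A region counted as called in a library with at least 1 bp. Group means were compared by exact two-sided permutation tests, hotspot-poor and other windows by sign-flip permutation over libraries, and windows by limma's lmFit and eBayes without trend, robust fit or minimum. The 4 members with the smallest p per direction, 5 shared, 3 AG-only and 3 GG-only regions by lowest within-list score percentile, the 3 longest runs and sparsest windows, and 2 windows on either side of the limit were named. Steps were tested on simulated data. Alternatives were other lists (higher-scoring 50%, equal number, equal covered length), each library left out, the lowest 10% or 30% of windows, windows of 200 kb, other offsets, scaling, minimum and overlap, and a replicate block. Those on runs and without chromosome 17 were added after the data were seen. Tests ran in limma 3.58.1 under R 4.3.3 and in scipy 1.17.1 under Python 3.11.15, tables in pandas 2.3.3 with numpy 2.4.6, and figures in matplotlib 3.10.9.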

Additional observations from a re-analysis of the deposited data

How the results depend on the processing

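The AG minus GG difference in the share of covered bp turned from -0.931 to 0.468 percentage points with lists of equal covered length, ranged from -2.19 to 0.325 when 1 library was left out, and turned without AG replicate 1. It kept its direction in the other alternatives run. Of 498 members, limma called 36 with an offset of 10000 bp (7.23%, against 6.42% of all windows), 18 with a variance trend (3.61%, against 7.89%) and 1 with median scaling (0.201%, against 0.0721%). It called 0 in the other alternatives, the replicate block included, under which 154 members (30.9%) and 17.1% of all windows had an unadjusted p under 0.05, against 130 (26.1%) and 17.7% without the block. Whether same-numbered AG and GG libraries were prepared together is not given by the labels. The correlation of deviations of same-numbered libraries was -0.0925 over all windows and 0.0181 over members. These values cannot decide it, since scaling to each library's mean removes effects common to a whole library. The ratio of GG-only to AG-only regions was 1.56 with lists of equal covered length and 0.163 to 25 when 1 library was left out, when fewer libraries are needed for a region to count. Lower scores, fewer hotspots found again and the steeper fall of AG density inside runs kept their direction in every alternative run for them. For hotspots found again, that direction was favoured by the choice of windows, and for lower scores that choice can favour it too. The comparison inside runs was chosen after the values were seen, and the edges of runs were set by these same libraries. The kept directions of these results are thus no separate support for them. None of the 8 windows named by p changed direction in 96 comparisons, each of 1 window under 1 other setting. They were picked by p in these same libraries, so the kept direction is no separate support. A limma adjusted p of 0.05 was passed in 12 of the 96, the smallest being 0.000621 with a variance trend. All 12 arose with that trend, the offset of 10000 bp or median scaling, whose shares over all windows are given above. Unknown depth limits all comparisons of sparse windows between libraries.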
